A study of Mus musculus with 16 samples.

Results

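Citrus accord, a perfumery blend, was compared with its vehicle in the GFP- cells sorted from mouse olfactory mucosa. The comparison rests on 8 of the 16 arrays of the series, the 4 of odor-exposed and the 4 of vehicle-exposed GFP- cells. Arrays were assigned to these groups by their labels, while the comparison itself was chosen with earlier results of these data known. All mice carried S100a5-tauGFP, a reporter that marks the axons and bodies of neurons with a green fluorescent protein under control of the S100a5 gene. The study used 24 mice, males and females aged 7 to 12 weeks, and each array held RNA from cells of 3 mice. A mouse sat alone in a chamber flushed with clean air at 3.1 L/min for 40 h. From 26 h on it received a 10 s pulse every 20 min, of citrus accord at 100% in the odor groups and of filtered air in the vehicle groups. The mucosa was then dissociated and sorted by fluorescence into GFP+ and GFP- cells. The GFP- gate is defined by the absence of reporter signal and not by a cell type. The sex of the mice in each pool is not given in the labels used here.

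Olfactory sensory neurons (OSNs) each express a single odorant receptor from a very large gene family. An odorant that binds the receptor opens a cyclic nucleotide gated channel through the G protein Golf, adenylyl cyclase and cAMP, and the neuron's firing in turn sets the expression of a group of activity-dependent genes. Pcdh10, a delta-protocadherin that mediates homophilic cell adhesion, and Sema7a, a membrane-anchored semaphorin that guides axons and shapes synapses, belong to that group, as does S100a5, a calcium-binding protein of the EF-hand family. Olfr618 is a class I odorant receptor of the cluster on chromosome 7.

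The starts of both genes that passed the test in the direction of citrus are shown. Activity-dependent genes are commonly read through cAMP response elements, whose half-site is TGACG. The GC box, a motif that is not particular to such genes, was looked for as well. Each sequence below is the 250 bases upstream of the gene's start in RefSeq (mouse build GRCm38.p6), on the plus strand, which is the gene's strand. Capitals mark TGACG in Pcdh10 (chr3:45378148-45378397) and GGGCGG, the core of a GC box, in Sema7a (chr9:57939862-57940111).
Pcdh10: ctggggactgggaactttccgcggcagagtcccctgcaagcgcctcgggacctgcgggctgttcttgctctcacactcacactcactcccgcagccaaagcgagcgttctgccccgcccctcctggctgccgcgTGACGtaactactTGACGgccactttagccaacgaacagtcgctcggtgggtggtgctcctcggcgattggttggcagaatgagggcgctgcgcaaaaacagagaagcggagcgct
Sema7a: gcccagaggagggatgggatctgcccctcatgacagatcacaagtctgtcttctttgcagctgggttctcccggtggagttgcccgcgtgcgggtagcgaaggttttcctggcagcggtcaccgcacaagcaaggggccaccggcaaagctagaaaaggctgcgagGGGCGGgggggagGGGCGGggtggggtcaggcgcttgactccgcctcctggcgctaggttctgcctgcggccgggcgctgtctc
The Pcdh10 promoter held 2 copies of TGACG, which began 116 and 103 bases upstream of the start, and 1 copy of GGGCGG on the opposite strand. The Sema7a promoter held 2 copies of GGGCGG, which began 84 and 71 bases upstream, and 0 copies of TGACG. The complete palindrome TGACGTCA was in neither window. Both strands were searched, and every TGACGTCA also counts as TGACG. Among 32851 mouse promoters of the same length 17.8% held TGACG, 1.55% TGACGTCA and 32.7% GGGCGG, so these letters are common. They are a description of the windows only.

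The arrays held values on a log2 scale for 19572 probe sets with a gene symbol, each tested. On the 8 GFP- arrays the 95th percentile of the negative-control probes lay between 8.88 and 9.40, and each array had 5096 to 6021 probe sets above it. A probe set under that level is called here not above background. Arrays of the same group correlated at 0.985 to 0.992 across probe sets and arrays of different groups at 0.985 to 0.992. The groups differed in the negative controls, whose 95th percentile was 8.875 to 9.003 on the citrus arrays and 9.181 to 9.405 on the vehicle arrays. The number of probe sets above it was 5822 to 6021 with citrus and 5096 to 5580 with vehicle. Neither range overlapped between the groups, and the part of this in the results, most of all in those of dim probe sets, was not tested. OSN transcripts were abundant in the gate. Omp, which encodes olfactory marker protein, was between 18.83 and 19.35 on all 8 arrays and differed by 0.07 ± 0.14 (standard error). Transcripts of other cells were present too. The mean level of 13 neutrophil markers was 13.00 to 14.94 and that of 11 sustentacular markers 8.32 to 11.40, whereas all 8 horizontal basal cell markers and all 7 endothelial markers were not above background on any of the 8 arrays. Vehicle replicate 1 was the lowest of the 8 arrays in sustentacular markers, at 8.32 against 9.93 to 11.40 on the others. The Y-linked genes Eif2s3y, Kdm5d and Uty overlapped between the groups, with Eif2s3y at 6.57 to 9.17 under citrus and 6.75 to 9.23 under vehicle. In such sorted populations fewer cells of a type and less RNA per cell cannot be told apart.

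Between citrus and vehicle 3 genes differed in the GFP- cells. Pcdh10 and Sema7a rose and Olfr618 fell (limma, Benjamini-Hochberg adjusted p under 0.05), which is 0.0153% of the probe sets tested, 0.0102% for the rise and 0.00511% for the fall. Before adjustment 1151 probe sets (5.88%) had a p under 0.05, of which 581 (2.97%) were higher with citrus and 570 (2.91%) lower. The median difference over all probe sets was 0.01, with its 5th and 95th percentiles at -0.38 and 0.43. It was positive for 10179 probe sets and negative for 9393, beside which the counts by sign in the gene lists below stand. All 4 citrus arrays were above all 4 vehicle arrays for 247 probe sets (1.26%) and below them for 307 (1.57%).

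**Figure D1:**
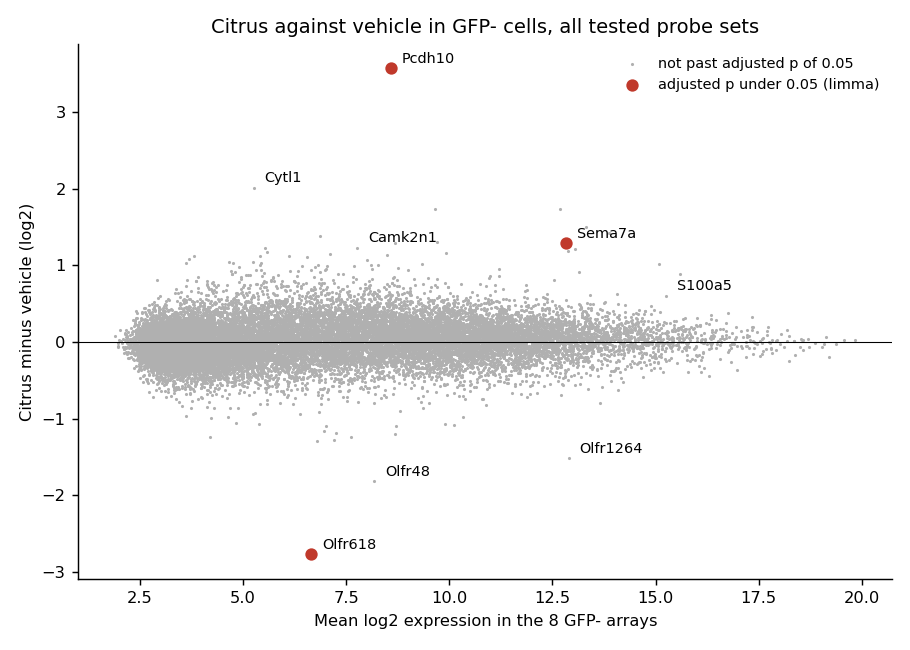
Citrus minus vehicle (log2, vertical axis) against the mean log2 expression over the 8 GFP- arrays (horizontal axis) for each of 19572 probe sets, with those of adjusted p under 0.05 in red. Most probe sets lie in a narrow band around 0.01, and the 3 red points are Pcdh10 at 3.57, Sema7a at 1.29 and Olfr618 at -2.77.

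Pcdh10, on chromosome 3, showed the largest difference of all probe sets. Its log2 expression was 11.28, 10.10, 10.44 and 9.64 in citrus replicates 1 to 4 and 7.04, 6.27, 7.39 and 6.46 in vehicle replicates 1 to 4. The lowest citrus array was thus more than 2 log2 units above the highest vehicle array, and the groups did not overlap. The mean was 10.36 ± 0.69 (SD, n = 4) with citrus and 6.79 ± 0.51 with vehicle, a difference of 3.57 ± 0.38 (95% interval 2.77 to 4.38, limma adjusted p = 0.000512). The transcript was above background on 4 of 4 citrus arrays and on 0 of 4 vehicle arrays, where it sat at the 73.4th to 85.8th percentile of the negative controls. Measured against the 95th percentile of those controls rather than its own vehicle signal, Pcdh10 was 1.08 log2 units higher with citrus. That is 2.11-fold on the array scale, which need not match a ratio of transcripts, and no interval was computed for it. An exact permutation test of the 4 and 4 arrays gave p = 0.0286, the smallest value that 70 assignments allow.

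Sema7a, on chromosome 9, changed less but from a high level. It stood at 13.57, 13.48, 13.50 and 13.38 in citrus replicates 1 to 4 and at 12.06, 12.43, 12.39 and 11.88 in vehicle replicates 1 to 4. All 8 values were above background, the citrus arrays lay close together and the groups did not overlap. The mean was 13.48 ± 0.08 (SD, n = 4) against 12.19 ± 0.27, a difference of 1.29 ± 0.14 (95% interval 0.99 to 1.59, limma adjusted p = 0.000512). In a fit on the 8 GFP- arrays alone the adjusted p was 0.0691 and Sema7a no longer passed.

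No other non-clustered protocadherin measured passed the test. Of 11 members 1 passed the test, and the median difference over the list was -0.40, against 0.01 over all probe sets. Pcdh1, Pcdh7, Pcdh9, Pcdh17 and Pcdh19 were each lower at an unadjusted p under 0.05, by 0.47 to 0.56, and did not pass after adjustment. Of all probe sets 2.91% were lower at that level. Pcdh17 and Pcdh19, which like Pcdh10 belong to the delta-2 protocadherins, had differences of -0.55 ± 0.23 and -0.54 ± 0.21. For Pcdh9 the values were 7.68, 7.91, 7.56 and 7.43 with citrus and 8.23, 8.21, 7.79 and 8.22 with vehicle. The ranges overlapped through citrus replicate 2 and vehicle replicate 3, and Pcdh9 was not above background on any GFP- array.

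Sema7a was likewise the only called member of its family, with 1 of 19 semaphorins past the test and a list median of -0.04. The other 18 lay between Sema3c at -0.47 ± 0.29 and Sema3a at 0.44 ± 0.26, both secreted semaphorins. Sema3c and Sema3a were not above background on any GFP- array. Neither receptor of Sema7a passed. Plxnc1, its plexin, differed by -0.25 ± 0.20 and was not above background, and Itgb1, the integrin beta-1 subunit, was above background on all arrays and differed by 0.14 ± 0.22. Over 11 semaphorin receptors the median was -0.25, with 10 of 11 below 0 and 0 past the test. The lowest p among them was that of Plxna4, a plexin of OSN axons, which was 12.20 to 12.93 with citrus and 12.76 to 13.31 with vehicle.

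**Figure D2:**
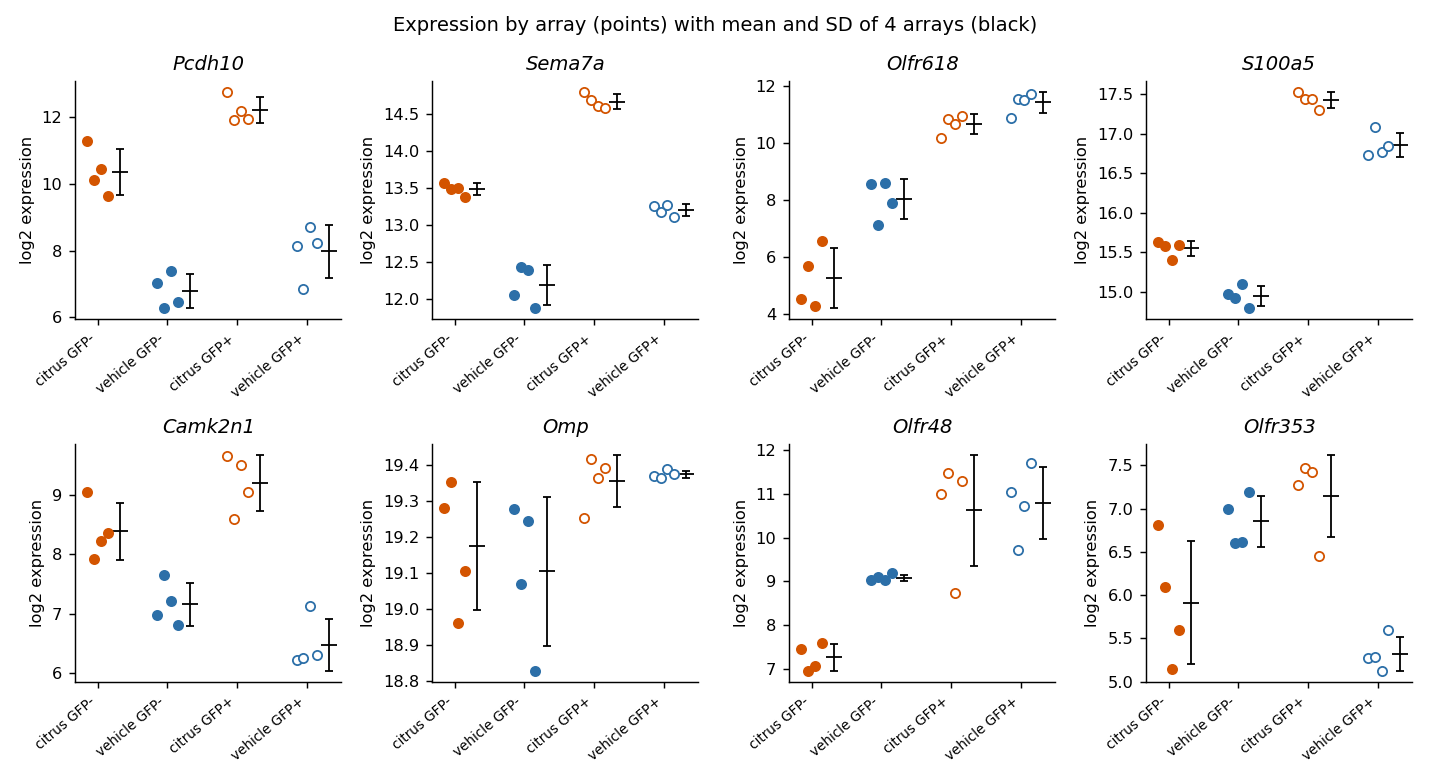
Log2 expression (vertical axis) of 8 genes on each array, with filled points for GFP- and open points for GFP+ arrays, orange for citrus and blue for vehicle, and the mean with SD of 4 arrays in black. Citrus and vehicle GFP- points are separate for Pcdh10, Sema7a, Olfr618, S100a5, Camk2n1 and Olfr48, and overlap for Omp and Olfr353.

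Other activity-raised genes of OSNs were mostly higher with citrus but did not pass. The list of such genes was drawn up from general knowledge and held the called Pcdh10 and Sema7a. Of 16 members measured 2 passed, 12 had a positive difference and 4 a negative one, and the median was 0.52. The 12 and the median include both called genes. Leaving out 1 GFP- array at a time gave medians of 0.35 to 0.61. On no GFP- array were 4 members, Fxyd2, Avp, Caly and Cdkn1c, above background. For S100a5, the gene of the reporter, the citrus arrays read 15.62, 15.57, 15.41 and 15.60 and the vehicle arrays 14.97, 14.92, 15.10 and 14.79. The groups did not overlap. The difference of 0.61 ± 0.13 (95% interval 0.33 to 0.88) had an adjusted p of 0.442 by limma, and it is measured in cells that were sorted on the reporter of this gene.

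Camk2n1, an inhibitor protein of calcium/calmodulin-dependent kinase II, was 9.05, 7.92, 8.23 and 8.37 with citrus and 6.97, 7.64, 7.22 and 6.80 with vehicle. The groups were separate but close to each other at citrus replicate 2 and vehicle replicate 2, and 1 of 4 citrus arrays was above background. The difference was 1.23 ± 0.28 (limma adjusted p = 0.502). Of 20 calcium and CaMKII signalling genes 0 passed, and the median was -0.02. Ppp3ca, a catalytic subunit of the phosphatase calcineurin, was at 14.73 to 15.16 with citrus and 15.21 to 15.37 with vehicle, a difference of -0.34 ± 0.15.

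Among the rest of the activity-raised genes, Lrrc3b differed by 0.95 ± 0.54, Kcnmb3, a potassium channel beta subunit, by 0.68 ± 0.33, and Kirrel2, a homophilic adhesion molecule of OSN axons, by 0.62 ± 0.45. Cidea, Pcp4l1 and Avp differed by 0.55, 0.48 and 0.31. None of these passed. Fxyd2 and Calb2, by contrast, lay below 0 at -0.16 and -0.08. All 7 activity-lowered genes measured had a negative difference, with a median of -0.17, and 0 of 7 passed. Efna5, an ephrin that repels axons through Eph receptors, was 14.10, 13.83, 13.54 and 13.65 with citrus and 14.40, 14.84, 14.04 and 14.34 with vehicle, a difference of -0.63 ± 0.18 (limma adjusted p = 0.773). Kirrel3, the counterpart of Kirrel2, differed by only -0.11 ± 0.21, and Nrp2, a semaphorin co-receptor, by -0.32 ± 0.23.

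The cascade that turns odorant binding into current held no called gene. Of 18 olfactory transduction genes 0 passed, and their median was -0.08. Gnal, the alpha subunit of Golf, differed by -0.18 ± 0.15, Adcy3, the adenylyl cyclase, by -0.15 ± 0.14, and Cnga2, a channel subunit, by 0.14 ± 0.15. Pde4a, a cAMP phosphodiesterase, differed most, at -0.51 ± 0.27. Of 15 CREB and cAMP pathway genes 0 passed. The coactivators Crebbp and Ep300 were at -0.56 ± 0.21 and -0.45 ± 0.19, and Atf1, a CREB-family factor, at 0.51 ± 0.23. Atf1 was not above background on any GFP- array.

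Immediate early genes, which mark recent stimulation and also cell dissociation, varied widely between arrays of the same group. Of 24 members 0 passed, 20 were positive, and the median was 0.29. Leaving out 1 GFP- array at a time moved that median between 0.04, without vehicle replicate 3, and 0.50, without vehicle replicate 4. Their mean level was 7.97, 8.43, 7.58 and 8.86 in citrus replicates 1 to 4 and 7.36, 8.44, 7.25 and 8.68 in vehicle replicates 1 to 4, so the arrays numbered 2 and 4 were the higher ones in both groups. Fos, a subunit of AP-1, differed by 0.81 ± 0.88 and Egr1 by 0.40 ± 0.90. Arc, with the lowest p among those higher, differed by 0.39 ± 0.17 at a level of at most 4.01, which is not above background. All 8 heat shock genes were positive, with 0 past the test and a median of 0.35, which was 0.19 without citrus replicate 4. Hspa1a, the inducible Hsp70, was 15.13, 14.81, 12.40 and 16.03 with citrus and 11.62, 12.67, 13.28 and 15.08 with vehicle, which spans more than 3 log2 units inside each group.

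Among the odorant receptors 1 gene passed the test. The arrays measured 1091 odorant receptors with Olfr symbols and 14 trace amine receptors, 1105 in all or 5.65% of the probe sets tested. Of these 1 passed, in the direction of lower with citrus, and 0 were higher after adjustment. Without adjustment, 34 had a p under 0.05 and lay lower, and 23 lay higher, against 2.91% lower and 2.97% higher over all probe sets. The lower count is near that background. Only 252 to 381 receptors were above background on a given GFP- array, and 304 were above it on at least 4 of the 8. Of those 304 receptors 6 reached that level in the direction of lower and 0 in the direction of higher, with a median of 0.07. The 14 trace amine receptors had a median of -0.02 and 0 at that level.

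Olfr618 was 4.53, 5.67, 4.28 and 6.57 in citrus replicates 1 to 4 and 8.55, 7.11, 8.58 and 7.89 in vehicle replicates 1 to 4. The groups did not overlap, but citrus replicate 4 and vehicle replicate 2 came close to each other. The mean was 5.26 ± 1.06 (SD, n = 4) with citrus and 8.04 ± 0.69 with vehicle, a difference of -2.77 ± 0.42 (95% interval -3.66 to -1.89, limma adjusted p = 0.027). It was not above background on any of the 8 arrays. Its values lay at the 36th to 79.3rd percentile of the negative controls with citrus and at the 83.5th to 93.1st with vehicle. Whether its probes also take up transcripts of near-identical receptors is not given in the files.

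The call of Olfr618 depended on single arrays and on the estimate of the spread. It was past the threshold in 3 of 8 fits that each left out 1 GFP- array. Its adjusted p was 0.159 without citrus replicate 1, 0.135 without citrus replicate 3, 0.179 without vehicle replicate 1, 0.192 without vehicle replicate 3 and 0.108 without vehicle replicate 4. In the fit on the 8 GFP- arrays alone it was 0.437. The difference itself stayed between -3.21 and -2.36 in 20 other settings.

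No measured neighbour of Olfr618 in its cluster passed the test. The 10 nearest measured receptors, Olfr612 to Olfr624, lay between -0.50 ± 0.19 for Olfr612 and 0.50 ± 0.44 for Olfr620, and 0 passed. All 10 were not above background on any GFP- array. Class I receptors, which resemble fish receptors and lie mostly in the dorsal zone of the epithelium, numbered 117. Their median was 0.25, with 85 positive and 32 negative, and 0 passed as higher and 1, Olfr618, as lower. The 950 class II receptors had a median of 0.03, with 511 positive and 439 negative and 0 past the test. Of the 117 class I receptors, 85 were not above background on any GFP- array. All 3 dorsal zone genes measured were positive, with Nqo1, which marks dorsal OSNs, at 0.36 ± 0.25, and 0 passed. Of 4 ventral zone genes 0 passed, 3 were negative, and Reg3g was at 0.92 ± 0.30. Reg3g was not above background on any GFP- array, and vehicle replicate 1 was low in it, at 3.46 against 4.52 to 4.74 on the other vehicle arrays.

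Receptors were numerous among the large differences. At a size of at least 1 on the log2 scale there were 51 probe sets (0.261%), 35 higher and 16 lower. Of the 16 lower ones 15 were odorant receptors, and the other was Vmn2r36, a vomeronasal receptor. Of the 35 higher ones 4 were receptors, namely Olfr33, Olfr298, Olfr58 and Olfr651. Receptors were 5.65% of the probe sets tested. Of all 51, 28 were not above background on any GFP- array, 7 were above it on all 8, 14 had groups that did not overlap, and 3 passed the test. Over all 19572 probe sets, 13042 were not above background on any GFP- array and 4712 were above it on all 8. Groups were without overlap for 1.26% as higher and 1.57% as lower. The 51 were picked by the size of their difference, so their groups without overlap are not a separate result.

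Olfr1264, on chromosome 2, was the brightest of the 15 receptors. It was 12.11, 12.79, 11.61 and 12.02 with citrus and 14.53, 13.32, 13.35 and 13.40 with vehicle. Every array was above background and the groups did not overlap, with vehicle replicate 1 standing above the rest of its group. The difference of -1.52 ± 0.32 (95% interval -2.19 to -0.85) had a limma adjusted p of 0.442. Of its 10 nearest measured neighbours 0 passed. Olfr1260, above background on all 8 arrays, was at -1.07 ± 0.46 and Olfr1259 at -0.57 ± 0.31, while the other 8 lay between -0.28 and 0.31.

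Olfr48, also on chromosome 2, was 7.46, 6.96, 7.07 and 7.61 with citrus and 9.04, 9.10, 9.03 and 9.18 with vehicle. The vehicle arrays lay close together (SD 0.07, n = 4) and well apart from the citrus arrays. The difference was -1.82 ± 0.47 with a limma adjusted p of 0.746, since the GFP+ arrays, on which this receptor varied from 8.74 to 11.70, share the estimate of its spread. In the fit on the 8 GFP- arrays alone its adjusted p was 0.00602, and it was then called together with Pcdh10. Olfr48 was not above background on any GFP- array.

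Of the other receptors with the smallest p, Olfr1372-ps1, a pseudogene, was 8.61 to 9.19 with citrus and 9.65 to 10.03 with vehicle. Olfr13, Olfr491 and Olfr47 had differences of -1.24, -1.28 and -0.91 without overlap of the groups, and none was above background. Olfr1491 was the only one of the 10 with a positive difference, at 1.00 ± 0.24, and was not above background either. None of these passed.

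**Figure D3:**
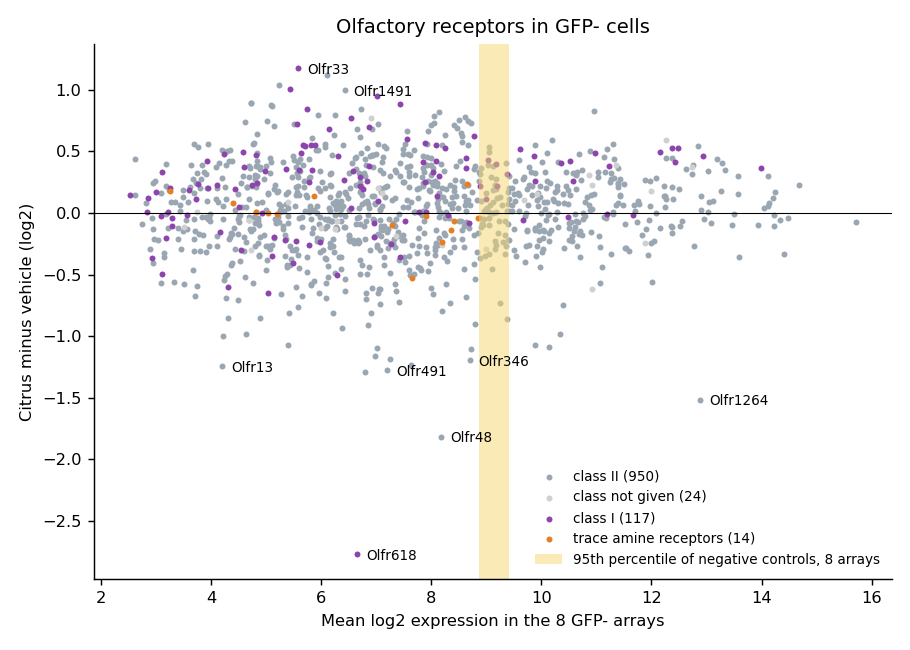
Citrus minus vehicle (log2, vertical axis) against the mean log2 expression over the 8 GFP- arrays (horizontal axis) for 1105 receptors, coloured by class, with the range over arrays of the 95th percentile of negative controls as a yellow band from 8.88 to 9.40. Olfr618 at -2.77 and Olfr48 at -1.82 lie left of the band, and Olfr1264 at -1.52 lies right of it.

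The machinery of receptor choice and export showed no called gene, with 0 of 16 and a median of -0.04. Rtp2, a chaperone that carries receptors to the cell surface, was at 0.35 ± 0.17 and Emx2, a transcription factor for receptor genes, at -0.51 ± 0.26. Over 19 axon guidance and glomerular sorting genes the median was -0.14, with 2 past the test, which are again Pcdh10 and Sema7a, and 12 negative. Of 14 synaptic vesicle genes 0 passed, and Bsn and Cplx1, both presynaptic, were at -0.52 ± 0.21 and -0.48 ± 0.18. Neither was above background on any GFP- array.

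Of the 38 lists 4 held a called gene, and in each the called genes were Pcdh10, Sema7a or both. Markers of the other cell types in the gate held 0 called genes. Mature OSN markers had a median of -0.03 over 15 genes, immature OSN markers 0.20 over 13 and dividing progenitor markers 0.24 over 6. Sustentacular markers, from the glia-like supporting cells, had a median of 0.57 over 11 genes. Cyp2a5, a cytochrome P450 of these cells, was 14.09, 15.62, 16.41 and 16.20 with citrus and 10.28, 16.13, 16.16 and 15.70 with vehicle, with vehicle replicate 1 far below the other arrays. Without that array the median of the sustentacular markers turned to -0.24 and that of 23 xenobiotic metabolism genes went from 0.42 to -0.06. Other medians moved with single arrays too. Leaving out 1 GFP- array at a time gave -0.27 to -0.06 for the activity-lowered genes, -0.35 to -0.12 for the semaphorin receptors, -0.23 to -0.04 for axon guidance and -0.11 to -0.01 for transduction.

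The 3 erythroid markers measured had a median of 0.73, and Alas2, the first enzyme of haem synthesis in red cells, was 8.20 to 8.96 with citrus and 6.41 to 8.57 with vehicle. Without vehicle replicate 1 their median was 0.39. Monocyte and macrophage markers had a median of 0.32 over 13 genes and neutrophil markers 0.05 over 13, with S100a8, an alarmin, at -0.44 ± 0.50. Leaving out 1 GFP- array at a time moved the monocyte and macrophage median between 0.14, without citrus replicate 4, and 0.61, without vehicle replicate 4. The neutrophil median changed sign, from -0.18 without vehicle replicate 2 to 0.46 without citrus replicate 1. Blood cell markers were the more variable genes, with a median residual SD of 0.72 over 36 markers against 0.29 over all probe sets on the GFP- arrays. Of 14 inflammatory genes 0 passed, and Cxcl1, a neutrophil-attracting chemokine, was lower in all 4 citrus arrays, at 3.71 to 4.06 against 4.16 to 4.60, but not above background. NRF2 targets and endoplasmic reticulum stress genes had medians of 0.24 and 0.08 with 0 called. Hspa5, the main chaperone of the endoplasmic reticulum, was 16.80 to 17.08 with citrus and 16.33 to 16.78 with vehicle, a difference of 0.37 ± 0.14 (limma adjusted p = 0.824).

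Genes next in rank by p lay mostly at dim signal, as did most probe sets. Of all 19572 probe sets tested, 13042 were not above background on any GFP- array. In the direction of higher with citrus the genes next in rank were Paqr4 (0.79), Kel (1.03), Il1rn (0.98), Rab3il1 (0.88) and Il17re (0.81), besides S100a5, Camk2n1 and Olfr1491. Their groups did not overlap, and of these 5 genes 0 were above background on any GFP- array. Il1rn encodes the interleukin-1 receptor antagonist and was 5.10 to 5.66 with citrus and 4.13 to 4.73 with vehicle. Kel, a surface metallopeptidase of red cells, was 4.73, 3.45, 4.12 and 4.26 with citrus and 2.91 to 3.24 with vehicle, and passed (adjusted p = 0.0142) when citrus replicate 2 was left out. In the other direction the differences were -0.85 for Cd209c, a C-type lectin, -1.05 for Vmn2r36, -0.84 for Mab21l2, -0.75 for Prr29, -0.72 for Il1rapl1, -0.66 for A530016L24Rik and -0.78 for Tubal3. None of these was above background or passed the test.

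In the GFP+ cells of the same exposures 4 genes passed (0.0204%), namely Pcdh10, Sema7a, Camk2n1 and Olfr353. The question of whether the response differed between the gates was tested as the difference of both effects, and 0 of 19572 probe sets passed after adjustment, with 722 (3.69%) at an unadjusted p under 0.05. With the pool of mice as a random block 1 gene, Olfr353, passed, and 1042 had an unadjusted p under 0.05. That block takes GFP+ and GFP- arrays of the same number and exposure as the same mice. The labels do not state this pairing outright, but 24 mice in pools of 3 are too few for a separate pool per array. The main fit took all arrays as independent, so its test of the gates leaves out any sharing of mice. Pcdh10 was 11.92 to 12.76 with citrus and 6.84 to 8.70 with vehicle in GFP+ cells, a difference of 4.22 against 3.57 in GFP- cells. The effect in GFP- cells minus that in GFP+ cells was -0.65 ± 0.54 with a 95% interval of -1.79 to 0.49. Since Pcdh10 was not above background on any vehicle array of either gate, both differences start from background signal, and the interval bounds nothing about its response. For Sema7a the GFP+ difference was 1.46, and the effects differed by -0.17 ± 0.20 with an interval of -0.59 to 0.25. For S100a5 the GFP+ difference was 0.57 and the effects differed by 0.03 ± 0.18. A p that misses the threshold does not show that the gates respond alike.

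Other genes had unlike values in the 2 gates without passing the test. Camk2n1 differed by 2.74 in GFP+ and 1.23 in GFP- cells, and the effects differed by -1.51 ± 0.40 (interval -2.35 to -0.66, limma adjusted p = 0.999). Camk2n1 was not above background on any vehicle array of either gate. Both of its differences thus start from background signal, and the interval bounds nothing about its response. Olfr618 was 10.18 to 10.96 with citrus and 10.88 to 11.74 with vehicle in GFP+ cells, with overlap and a difference of -0.76. Its effects differed by -2.02 ± 0.59 (interval -3.27 to -0.77, limma adjusted p = 0.999). Since Olfr618 was not above background on any GFP- array, this interval does not bound its response either. Olfr1264 had a difference of 0.22 in GFP+ cells, and its effects differed by -1.74 ± 0.45.

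Olfr353, on chromosome 2, had opposite signs. In GFP- cells it was 6.81, 6.09, 5.15 and 5.60 with citrus and 7.00, 6.60, 6.62 and 7.19 with vehicle, a difference of -0.94 ± 0.29 with overlapping groups. In GFP+ cells it was 6.45 to 7.46 with citrus and 5.13 to 5.60 with vehicle, a difference of 1.83 (limma adjusted p = 0.0462). The effects differed by -2.77 ± 0.42 (interval -3.65 to -1.89, limma adjusted p = 0.0807). Olfr353 was not above background on any GFP- or GFP+ array. Both differences and their contrast thus compare background signal, and the interval bounds nothing about its response. In the fit with the pool of mice as a random block the adjusted p of this contrast was 0.0232. Olfr704, with differences of -0.52 and 1.79, had effects that differed by -2.30 ± 0.49 (limma adjusted p = 0.999).

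**Figure D4:**
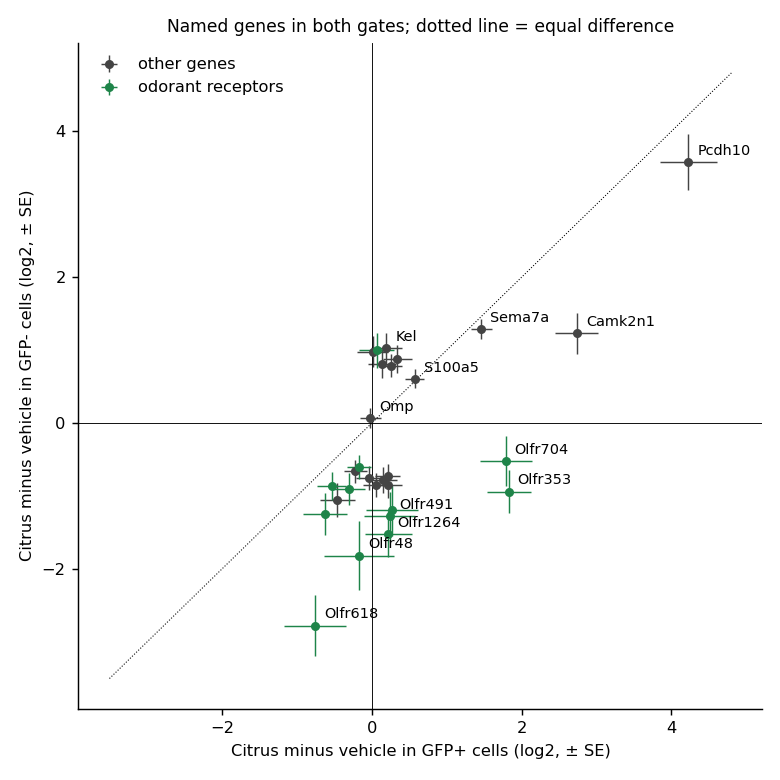
Citrus minus vehicle in GFP- cells (log2, vertical axis) against the same in GFP+ cells (horizontal axis) for the named genes, with standard errors as bars, odorant receptors in green, and a dotted line of equal differences. Pcdh10 (4.22 and 3.57) and Sema7a (1.46 and 1.29) lie near the line, Camk2n1 lies below it, and Olfr353 lies to the right of 0 and below it.

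Of the 15 receptors that were lower by at least 1 in GFP- cells, 14 had a higher level in GFP+ than in GFP- cells of vehicle mice, as had 62.9% of all 1105 receptors. These values share the vehicle GFP- arrays with the differences that chose the 15 receptors. Of the 15, 10 had a positive difference in GFP+ cells and 5 a negative one. The exception in level was Olfr346, whose GFP+ minus GFP- value in vehicle mice was -5.35. It was 8.88, 8.05, 8.04 and 7.41 with citrus and 8.51, 9.88, 9.62 and 9.17 with vehicle in GFP- cells, with overlap of the groups.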

How the data were processed

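RNA of sorted cells was hybridised to 16 Clariom S mouse arrays, 4 per group. The authors deposited log2 expression values. The submitters' processing notes name Affymetrix Expression Console, and its version, like the genome build, is not given in the sources used here. Per the labels, the values are gene-level SST-RMA, a robust multi-array average after a signal space transformation. That transformation can widen differences, which therefore need not match log2 ratios of transcripts. Values were used as deposited. Columns were matched to samples by their labels, and 0 columns belonged to other samples. Of 28846 probe sets, 6640 were controls and 2634 had no symbol, and the 19572 with 1 symbol from the platform annotation were tested. Odorant receptors were taken by symbol, and MOR family numbers up to 42 in the RefSeq gene table, known for 1067 of 1105 receptors, gave class I.

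Citrus and vehicle were compared with limma 3.58.1 in R 4.3.3, unpaired, with a mean per group and a shared spread over all 16 arrays, two-sided, adjusted by Benjamini-Hochberg over the 19572 probe sets at a threshold of 0.05. The difference of the effect between gates was a contrast of the same fit. Values after ± are standard errors beside differences and SD beside means. The labels describe each array as cells of 3 mice, so p-values measure the spread between such pools. Background is the 95th percentile of 5222 negative-control probes per array. A difference against it is the mean of the citrus arrays minus that of the vehicle arrays' percentiles. Arrays give no read depth, and their number limits the precision. Lists were described by counts and medians without a set test. The code was tested on simulated data. Plots came from matplotlib 3.10.9 under Python 3.11.15.

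The comparison, the gene lists, which were drawn up from general knowledge, and the tests were chosen with earlier results of these data known. Named genes were Pcdh10, Sema7a, Olfr618, S100a5 and Omp, those past the threshold, the next by p until 10 stood in each direction, the 10 receptors of smallest p, and the members of smallest p on each side of each list. Other list members, the genes with a difference of at least 1 in size, the neighbours of Olfr618 and Olfr1264, Olfr353, Olfr704, Olfr48, Camk2n1 outside its rank and the Y-linked genes were named after their values were seen. Alternatives were the 8 GFP- arrays alone, the replicate number as a block, the pool as a random block, a filter on dim probe sets, all probe sets, quantile normalization, 3 centrings, another prior, array weights and leaving out each GFP- array. Leaving out both GFP- arrays numbered 1 was added after seeing the data.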

Additional observations from a re-analysis of the deposited data

Results flagged for a closer look

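Within each group of 4 GFP- arrays, the highest or lowest array was set against the others for 94 genes and 43 lists, and 14 of 274 groups checked held an array whose gap to its nearest neighbour exceeded the 95% critical share of the group's range in Dixon's test. Chance alone gives about 1 in 20 such groups, so the count is near what chance gives, and no explanation was tested.

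Of the 14, 6 concerned vehicle replicate 1. Its level was 14.53 for Olfr1264 against 13.31 to 13.40 on the other vehicle arrays, 7.19 for Olfr704 against 6.04 to 6.23, 9.91 for Tmem176b against 11.26 to 11.44, 4.95 for Aldh1a1, a retinaldehyde dehydrogenase, against 6.81 to 7.15, and 3.46 for Reg3g against 4.52 to 4.74. The mean of the stromal markers was 4.20 there against 4.96 to 5.11. Vehicle replicate 4 was high in Atf1, at 8.05 against 7.25 to 7.36, and vehicle replicate 3 low in Pcdh9, at 7.79 against 8.21 to 8.23.

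Citrus replicate 1 was low in Aldh1a1, at 6.32 against 7.79 to 7.86, in Fxyd2, at 6.19 against 6.74 to 6.84, and in the mean of the neutrophil markers, at 13.00 against 14.58 to 14.85. It was high in the mean of the activity-raised OSN genes, at 11.54 against 11.08 to 11.10. Citrus replicate 2 was low in Ndufa1, a complex I subunit, at 9.65 against 10.32 to 10.45, and high in Cxcl1, at 4.06 against 3.71 to 3.76.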

How the results depend on the processing

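Results were recomputed under up to 20 alternatives, since dim probe sets such as Camk2n1 have no value once such sets are left out, and the difference between gates has none on the 8 GFP- arrays alone. The number of genes past the threshold stayed between 2 and 4. Pcdh10 passed in 20 of 20, with differences of 3.27 to 3.82 and adjusted p of 5.96e-06 to 0.00932, Sema7a in 18 of 20 (up to 0.233) and Olfr618 in 10 of 20 (0.00156 to 0.566). The filter on dim probe sets kept those above background on at least 4 of the 16 arrays. Pcdh10 met it through citrus arrays only and Olfr618 through GFP+ arrays only, so their calls in that setting are no further evidence. S100a5 passed in 0 of 20 (0.054 to 1) and Camk2n1 in 0 of 19. Olfr618 fell short with a prior that follows the level and is robust (0.0557), with array weights (0.0559) and without both GFP- arrays numbered 1 (0.352). Leaving out each array in turn gave 2 to 4 genes past the threshold. For the difference between gates, 1 gene, Olfr353, passed with the pool as a random block, after centring each array on the receptor median or on markers of mature OSNs, with that same prior and without both arrays numbered 1, and leaving out each array gave 0 to 1. Olfr353 was not above background on any array of either gate, and the cause was not tested. Arrays sharing a replicate number correlated in their deviations at 0.354, -0.0129, 0.137 and 0.214 for numbers 1 to 4, positive for all but number 2. The main fit did not pair arrays by number, and whether a number stands for a shared effect was not tested. With the replicate block on the 8 GFP- arrays, limma gave 2 genes, Pcdh10 and Olfr48 (adjusted p = 0.0253). Sema7a at 0.233 and Olfr618 at 0.566 then did not pass. For the difference between gates the block gave 0 genes. The fit on the 8 GFP- arrays without a block also gave 2 genes for citrus against vehicle. Over all named genes and alternatives, 1794 values kept their direction and side of the threshold, 12 fell short of it, 3 newly passed and 16, none of them called, changed sign. Over the 43 lists, 21 medians kept their sign in every setting and 22 did not. Of the 2634 probe sets without a symbol 0 passed. The number of arrays limits every result, and most probe sets, 13042 of 19572, were not above background on any GFP- array.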
